A study of Mus musculus with 6 samples.

Results

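The trefoil factors Tff1, Tff2 and Tff3 and the gastrokines Gkn1, Gkn2 and Gkn3 are 6 of the 25528 mouse genes in the count tables, chosen by name and found by Ensembl ID. They were measured by sequencing of polyadenylated RNA from organoids of the mouse gastric corpus in 3D culture. Such organoids are self-organised epithelium, here of the part of the stomach that secretes acid. One group of 3 libraries came from organoids overexpressing Erbb2, and the other group of 3 from control organoids transduced with an empty vector. The replicate numbers 1 to 3 occur in both groups, and whether the 3 libraries of a group stem from different animals, lines or cultures is not stated, so p-values measure the spread between these libraries, which may be technical. The labels name neither mouse strain and age nor the promoter that drives Erbb2.

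Trefoil factors are small secreted peptides folded into compact loops by disulfide bonds between cysteines, and they are stored and released together with mucins. In the stomach Tff1 is made by the pit cells that line the surface, and Tff2 by the mucous neck cells of the glands and in metaplasia, while Tff3 belongs mainly to intestinal goblet cells. Gastrokines are secreted proteins of the gastric epithelium that carry a BRICHOS domain. Gkn1 and Gkn2 are known from pit cells, Gkn2 protein can bind Tff1 peptide, and Gkn3 is known from mucous neck cells.

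The 3 trefoil genes lie side by side on chromosome 17 with no other protein-coding gene between them, and the 3 gastrokine genes lie side by side on chromosome 6. The coding sequences of Tff1 (chr17:31161395-31165277, minus strand, GRCm38) and Tff2 (chr17:31141049-31144282, minus strand, GRCm38) are shown because these are the abundant trefoil factors here and differ in how many trefoil units they hold. Both are spliced from the exons of the GENCODE M21 transcripts, which place 3 exons in Tff1 and 4 in Tff2. Tff1 is whole, and Tff2 runs from base 85 to base 381 of its coding sequence, from its first to its last cysteine codon. Capitals mark in-frame codons for cysteine.
Tff1: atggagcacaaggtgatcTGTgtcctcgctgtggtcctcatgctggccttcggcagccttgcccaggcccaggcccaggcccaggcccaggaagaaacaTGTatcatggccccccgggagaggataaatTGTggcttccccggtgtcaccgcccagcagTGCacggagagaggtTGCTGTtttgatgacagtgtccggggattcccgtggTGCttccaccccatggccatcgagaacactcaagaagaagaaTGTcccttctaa
Tff2: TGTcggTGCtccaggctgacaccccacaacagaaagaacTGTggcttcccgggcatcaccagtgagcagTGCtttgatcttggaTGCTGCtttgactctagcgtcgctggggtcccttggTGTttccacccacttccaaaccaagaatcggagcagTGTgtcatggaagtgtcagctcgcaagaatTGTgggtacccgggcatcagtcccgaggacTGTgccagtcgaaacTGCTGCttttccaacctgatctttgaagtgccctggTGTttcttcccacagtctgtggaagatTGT
Tff1 held 8 cysteine codons among 87 codons, and Tff2 held 14 among 129. The spacing of cysteines that defines a trefoil unit was found 1 time in Tff1, 1 time in Tff3 and 2 times in Tff2, and 0 times in each gastrokine. Cysteine codons made up 8.64% of the codons of Tff3, 9.20% of those of Tff1 and 10.9% of those of Tff2, against 2.09% to 2.72% in the gastrokines. The longest run of bases shared exactly between transcripts of any pair of these genes was 14, between Tff2 and Tff3. One antisense gene, Gm15318, overlaps Tff1 in that annotation and has no entry in the deposited counts. The strand setting of the counting is not given, so reads of this gene and of Tff1 cannot be told apart.

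For the gastrokines, the 250 bases before the RefSeq transcription start are shown because their levels ran over wide ranges across libraries. They are RefSeq sequences on GRCm38.p6 at chr6:87350916-87351165 (minus strand) for Gkn1, chr6:87373115-87373364 (plus strand) for Gkn2 and chr6:87388936-87389185 (minus strand) for Gkn3, and 3 of the 6 genes matched that table. Capitals mark matches, on either strand, to the TATA box TATAAA, the GATA site AGATAA, the AP-1 site TGANTCA and the E-box CACGTG.
Gkn1: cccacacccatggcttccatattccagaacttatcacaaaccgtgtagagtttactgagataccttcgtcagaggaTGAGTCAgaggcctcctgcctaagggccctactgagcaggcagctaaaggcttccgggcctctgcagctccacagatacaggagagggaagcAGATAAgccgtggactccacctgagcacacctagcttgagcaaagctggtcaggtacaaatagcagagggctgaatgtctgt
Gkn2: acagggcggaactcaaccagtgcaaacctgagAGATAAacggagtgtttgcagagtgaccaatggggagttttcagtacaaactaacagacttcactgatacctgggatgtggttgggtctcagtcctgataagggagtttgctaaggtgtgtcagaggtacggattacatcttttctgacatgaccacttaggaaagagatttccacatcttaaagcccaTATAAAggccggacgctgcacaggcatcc
Gkn3: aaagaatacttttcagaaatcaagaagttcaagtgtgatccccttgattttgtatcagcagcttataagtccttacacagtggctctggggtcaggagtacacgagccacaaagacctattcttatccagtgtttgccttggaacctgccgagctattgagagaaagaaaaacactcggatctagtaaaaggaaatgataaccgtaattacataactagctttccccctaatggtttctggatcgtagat
AGATAA, a form of the site of GATA factors, occurred 1 time each in Gkn1 and Gkn2. TGANTCA, the site of AP-1 factors, occurred 1 time in Gkn1, and TATAAA occurred 1 time in Gkn2, 23 bases before the RefSeq start. In GENCODE M21 Gkn1 and Gkn2 start at 87350942 and 87373357, inside their windows. The Gkn3 window held 0 matches. Among 32851 promoter windows of the same length, 9.99% held AGATAA, 6.75% TGANTCA, 12.4% TATAAA and 6.02% CACGTG. These matches are letters in a window and were not tested as sites.

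Library totals lay between 18735853 and 22767455 counts. Erbb2 itself was at 125, 164 and 128 CPM (counts per 1000000 scaled counts) in control replicates 1, 2 and 3 and at 342, 349 and 285 CPM in the overexpressing libraries, so the groups did not overlap and the check matched the labels. Its log2 fold change was 1.23 (SE 0.15, adjusted p = 0.64 in edgeR) with the group as the single term, and 1.23 (SE 0.09, adjusted p = 3.47e-05) when the replicate number was added as a block. Without the block edgeR called 0 of 12593 tested genes, with 419 at an unadjusted p under 0.05, and DESeq2 called 28 higher and 6 lower. With the block edgeR called 298 higher and 91 lower, or 2.37% and 0.723% of genes tested. The first principal component held 57.8% of the variance, with both libraries of replicate 3 at its positive end, at 38.8 and 50.1. From here on, a gene is said to rise or fall where it passed with the block, and edgeR called none of these genes with the group as the single term.

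Of the 6 genes, 5 had enough counts to be tested. Among these, 1 rose with the block, Tff2, and 0 fell, beside the 2.37% and 0.723% of all genes tested. Without the block edgeR called 0 of the 5 in either direction, beside 0% of all genes tested, and limma voom and DESeq2 also called 0 of the 5. DESeq2 without the block gave no p-value for Gkn3. At an unadjusted p under 0.05 edgeR without the block had Tff1 and Gkn2. Gkn2 reached the count minimum in 2 overexpressing libraries and 1 control library, and Gkn1 likewise, so that their place among the tested genes leaned on the group in which they were higher. The median log2 fold change of the 5 was 1.25 with the block and 1.12 without it, beside -0.01 for all tested genes in both fits. In RNA from whole organoids, fewer cells of a type and less RNA per cell cannot be told apart.

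**Figure D1:**
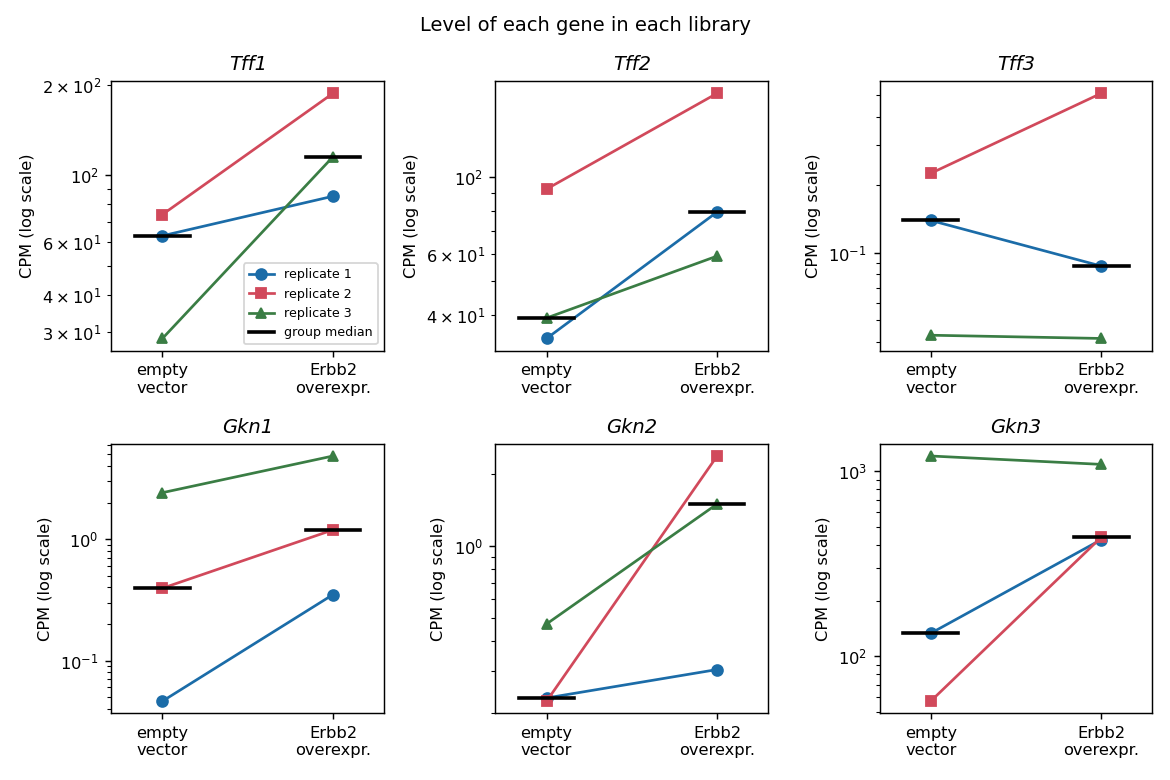
Level of each gene in CPM (log axis) in each library of empty-vector and Erbb2-overexpressing organoids; lines join libraries of the same replicate number and black bars are group medians (n = 3). In all 3 numbers Tff1, Tff2, Gkn1 and Gkn2 are higher with Erbb2, as are 19.6% of tested genes, and Gkn1 and Gkn2 rest on few counts. For Tff1 the groups do not overlap, as for 4.27% of tested genes. Gkn3 is higher in replicates 1 and 2 and not in replicate 3.

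Levels were set side by side per kilobase of exon (CPM per kb), since the annotated exon lengths differ from 493 bases for Tff3 to 1250 for Gkn1. In controls the order of the medians was Gkn3 (156 CPM per kb), Tff1 (89.3), Tff2 (67.1), Gkn1 (0.315), Gkn2 (0.294) and Tff3 (0.282). The ranges of Gkn3 (66.7 to 1410), Tff1 (40.6 to 105) and Tff2 (58.6 to 158) overlapped in controls. Those of Gkn1 (0.0371 to 1.93), Gkn2 (0.286 to 0.601) and Tff3 (0.0873 to 0.457) overlapped as well, all far below the first 3 genes. In overexpressing organoids Gkn3 (499 to 1280) stood above Tff1 (121 to 267) and Tff2 (101 to 300) without overlap, and the latter pair still overlapped. Gkn2 (0.387 to 3.02), Gkn1 (0.279 to 3.86) and Tff3 (0.0844 to 1.03) again had overlapping ranges. By level per kilobase Gkn3 ranked 15 and 17 among all genes in control and overexpressing replicate 3, and 618 in control replicate 2.

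Tff1, the pit cell trefoil peptide, was counted 1355, 1312 and 664 times in control replicates 1, 2 and 3 and 1950, 3309 and 2755 times in the overexpressing libraries. These correspond to 62.8, 73.9 and 28.6 CPM in controls and 85.0, 187 and 115 CPM with Erbb2. Every overexpressing library lay above every control library, as was so for 4.27% of all genes tested. The lowest overexpressing library, replicate 1, stood close to the highest control, replicate 2. Group means were 55.1 ± 23.6 CPM and 129 ± 52.6 CPM (SD, n = 3). The fold within a replicate number was 1.35, 2.53 and 4.01 for replicates 1, 2 and 3. Tff1 missed the threshold with the block (log2 fold change 1.25, SE 0.40, adjusted p = 0.325 in edgeR), and without it (1.23, SE 0.41, adjusted p = 1 in edgeR). Leaving out replicate 1 gave a log2 fold change of 1.67 with the block and an adjusted p of 0.00397 (edgeR), whereas without replicate 2 or 3 it was 1.22 (adjusted p = 0.74) and 0.90 (adjusted p = 0.378).

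Tff2, the trefoil peptide of mucous neck cells and of spasmolytic polypeptide-expressing metaplasia, was counted 738, 1642 and 911 times in controls and 1821, 3095 and 1423 times in overexpressing libraries. Its levels were 34.2, 92.5 and 39.2 CPM in control replicates 1, 2 and 3 and 79.4, 175 and 59.2 CPM with Erbb2. Replicate 2 was the highest in both groups, and the groups overlapped, since control replicate 2 exceeded overexpressing replicates 1 and 3. Within replicate numbers the folds were 2.32, 1.89 and 1.51, all above 1, as was so in 3 of 3 pairs for 19.6% of genes tested. With the block Tff2 rose 1.88-fold (log2 fold change 0.91, SE 0.11, adjusted p = 0.00166 in edgeR). Without the block the log2 fold change was 0.92 with an SE of 0.52 (adjusted p = 1). The call with the block also held without replicate 1, 2 or 3, with log2 fold changes of 0.76, 0.92 and 1.07 and adjusted p-values of 0.0033, 0.0104 and 1.04e-18 in edgeR. Such left-out fits hold few libraries, and their p-values lean on the spread shared across genes more than on that of Tff2. Without replicate 3, 769 genes were called higher and 320 lower. Without the block the log2 fold change of Tff2 was 0.33 without overexpressing replicate 2 and 1.51 without control replicate 2 (adjusted p = 0.991 and 1 in edgeR).

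Tff1 and Tff2 gave opposite orders of the within-number folds, although the genes are neighbours: replicate 1 was the lowest for Tff1 and the highest for Tff2, and replicate 3 the reverse. The ratio of Tff1 to Tff2 per kilobase was 1.53, 0.664 and 0.605 in control replicates 1, 2 and 3 and 0.890, 0.888 and 1.61 with Erbb2. It had no common direction, being lower with Erbb2 in replicate 1 and higher in replicates 2 and 3.

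Tff3, the goblet cell member, was near the limit of detection, with 3, 4 and 1 counts in controls and 2, 9 and 1 in overexpressing libraries. It stayed below the count minimum and was not tested. With no filter on low counts its log2 fold change was 0.53 (SE 0.99, adjusted p = 0.842 in edgeR with the block), an estimate that rests on overexpressing replicate 2. A difference of Tff3 was not detectable at this depth.

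**Figure D2:**
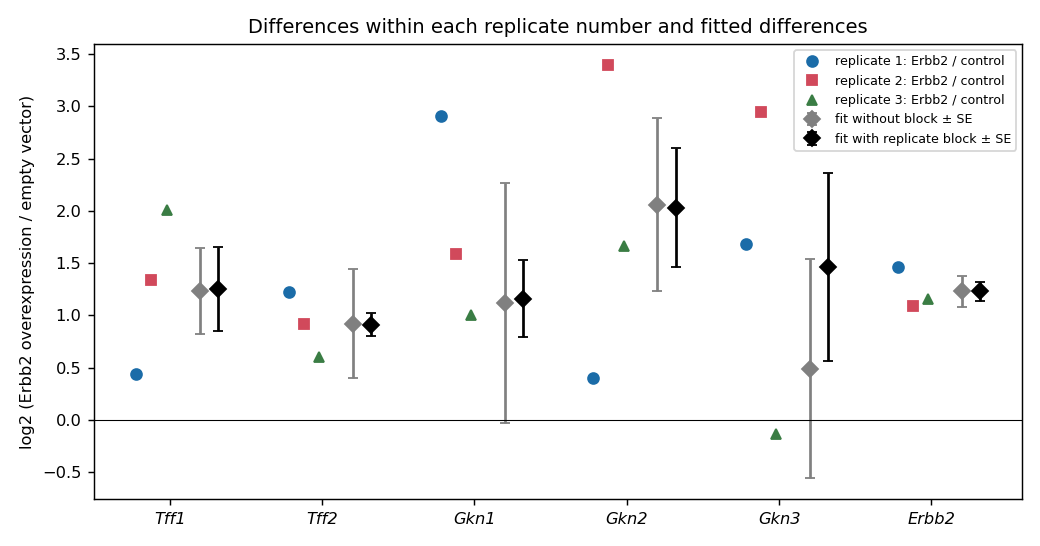
Log2 ratio of Erbb2-overexpressing to empty-vector CPM within each replicate number (coloured points) and fitted log2 fold changes with their standard errors (diamonds; grey without and black with the replicate block), for the 5 tested genes and Erbb2. The 3 points of Tff2 lie between 0.60 and 1.22, whereas those of Gkn3 run from -0.14 to 2.95.

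Gkn1, a pit cell gastrokine, was counted 1, 7 and 56 times in control replicates 1, 2 and 3 and 8, 21 and 116 times with Erbb2. That is 0.0463, 0.394 and 2.41 CPM against 0.349, 1.19 and 4.83 CPM. Replicate 3 was the highest in both groups and replicate 1 the lowest. Within each number the overexpressing library was the higher of the pair, with log2 ratios of 2.91, 1.59 and 1 in replicates 1, 2 and 3. The first of them was against a single count, and the last, the smallest, rested on the most counts. The fitted log2 fold change was 1.16 (SE 0.37, adjusted p = 0.131 in edgeR) with the block and 1.12 (SE 1.15, adjusted p = 1) without it. Leaving out overexpressing replicate 3 turned the value without the block to -0.46 (adjusted p = 1).

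Gkn2, whose protein binds Tff1 peptide, was counted 5, 4 and 11 times in controls and 7, 42 and 36 times in overexpressing libraries. Its levels were 0.232, 0.225 and 0.473 CPM against 0.305, 2.38 and 1.50 CPM. Overexpressing replicates 2 and 3 stood above all controls, and overexpressing replicate 1 lay below control replicate 3, so the groups overlapped. With the block the log2 fold change was 2.03 (SE 0.57, adjusted p = 0.0825 in edgeR), and without replicate 2 it was 1.35 (adjusted p = 0.596).

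Gkn3, the gastrokine of mucous neck cells, was, per kilobase, the most abundant of the 6 genes in 5 of 6 libraries and had the largest SD of log2 CPM among the controls. It was counted 2876, 1013 and 28056 times in control replicates 1, 2 and 3 and 9789, 7763 and 26255 times with Erbb2, or 133, 57.1 and 1210 CPM against 427, 440 and 1090 CPM. In replicates 1 and 2 the overexpressing library was 3.20-fold and 7.70-fold higher than its control. In replicate 3 both libraries were high and the ratio was 0.906. The highest and lowest control differed 21.2-fold, and the overexpressing libraries 2.56-fold. On the log2 scale the control SD was 2.27, larger than for all but 27 of 12593 tested genes, where the median gene had 0.24. In overexpressing libraries the SD was 0.77, and 851 genes exceeded it. Gkn3 missed the threshold with the block (log2 fold change 1.46, SE 0.90, adjusted p = 0.585 in edgeR) and without it (0.49, SE 1.05, adjusted p = 1). Without replicate 3 the log2 fold change with the block was 2.30 (SE 0.56, adjusted p = 0.355). Leaving out control replicate 2 or overexpressing replicate 3 turned the value without the block to -0.04 and -0.11.

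The libraries of replicate 3, the highest for Gkn3 and Gkn1 in both groups, also stood apart in other measures. The summed level of the 8 immune cell markers was 54.2 and 74.0 CPM in control and overexpressing replicate 3 and 18.6 to 35.9 CPM in the other 4 libraries; Cd68 made up 52.9 and 72.8 CPM of it, while the pan-leukocyte gene Ptprc was at 0.731 and 0.500 CPM and Adgre1 had 0 counts. The summed mucous neck and metaplasia markers, Tff2 and Gkn3 included, were at 28000 and 30600 CPM in control and overexpressing replicate 3. In the other 4 libraries they were at 35500 to 57000 CPM. The summed pit cell markers were at 12800 and 10000 CPM in replicate 3, against 16200 to 20100 CPM. Such sums follow their most abundant genes. The part of these differences in the levels of the gastrokines was not tested. Mitochondrial transcripts held 8.05% of counts in control replicate 3, within the 8.01% to 11.1% of the libraries of replicates 1 and 2, and 6.33% in overexpressing replicate 3, below them.

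Summed over each family, the trefoil factors were at 97.1, 167 and 67.8 CPM in control replicates 1, 2 and 3 and at 165, 363 and 174 CPM with Erbb2. The folds within a number were 1.69, 2.18 and 2.57. The gastrokines, which are nearly all Gkn3, summed to 134, 57.7 and 1210 CPM in controls and 428, 443 and 1100 CPM with Erbb2, with folds of 3.20, 7.68 and 0.909. Gastrokines made up 57.9%, 25.7% and 94.7% of the counts of the 6 genes in controls and 72.2%, 55.0% and 86.3% in overexpressing libraries. Their share was higher with Erbb2 in replicates 1 and 2 and lower in replicate 3. All 6 genes together held 0.0213% to 0.133% of the counts of a control library and 0.0599% to 0.134% of an overexpressing one.

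**Figure D3:**
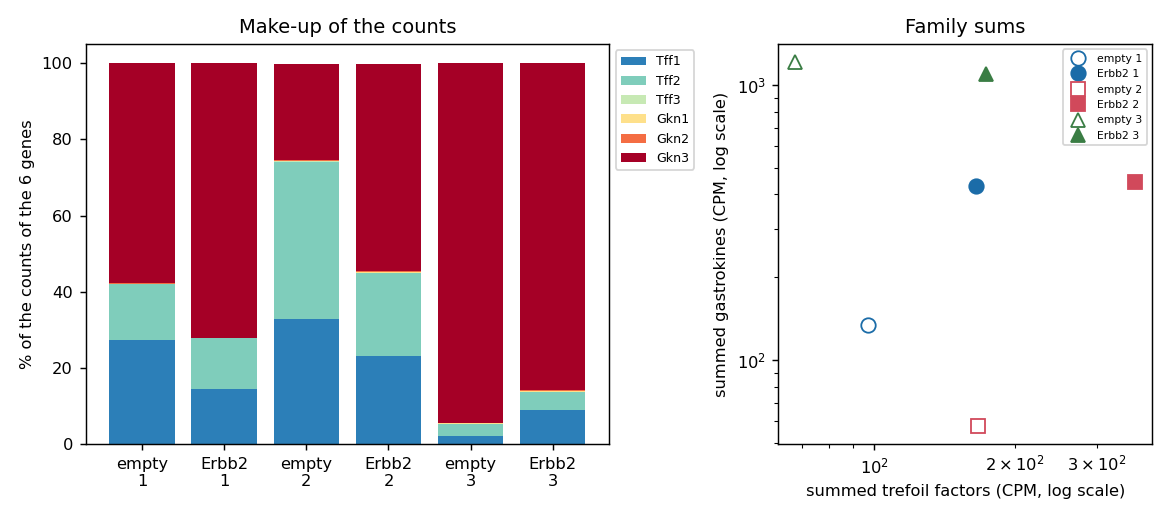
Left, share of the counts of the 6 genes (percent) held by each gene in each library; right, summed gastrokine CPM against summed trefoil CPM (both log axes), open symbols for empty vector and filled for Erbb2. Gkn3 takes 25.4% of the counts in control replicate 2 and 94.5% in control replicate 3, and within each number the filled symbol lies to the right of the open one.

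The genes that flank the clusters were read for comparison, the nearest 3 protein-coding genes on each side in the GENCODE M21 order. Around the trefoil genes 3 of 6 were tested. Glp1r, the receptor of glucagon-like peptide 1, rose with the block (log2 fold change 2.85, SE 0.66, adjusted p = 0.0316 in edgeR) from 0, 0.169 and 0.301 CPM in controls to 0.654, 0.566 and 2.16 CPM. It was counted 0, 3 and 7 times in controls and 15, 10 and 52 times with Erbb2. Its place among the tested genes thus rested on the group in which it was higher. The call was lost without replicate 1, 2 or 3 (adjusted p = 0.11, 0.0892 and 0.122) and missed the threshold in DESeq2 with the block. For the cholesterol transporter gene Abcg1 the log2 fold change was 0.76 and for the cilium gene Rsph1 -0.44 (adjusted p = 0.192 and 0.433 in edgeR). Around the gastrokine genes 4 of 6 were tested and 0 were called with the block, which called 3.09% of all genes tested. Among them the anthrax toxin receptor gene Antxr1 had a log2 fold change of 0.87 and Gfpt1, the first enzyme of hexosamine synthesis, of 0.28 (edgeR adjusted p = 0.276 and 0.0669). All 7 are listed by position, and those named were taken after their values were seen.

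Likeness over the 6 libraries was measured by Pearson correlation of log2 CPM with 10928 or 10929 other genes, as a description. Closest to Tff1 were Zfp974 (r = 0.994), Tanc1, Slc35f5, Rcbtb1 and Fam43a (0.960). Those nearest to Tff2 were Ptpmt1 (r = 0.996), Trim14, Nostrin, Bicdl2 and B4galnt1 (0.977). For Gkn1 they were Map2k1 (r = 0.996), Cfap45, Ssu72, Lrp10 and Desi1 (0.987), and for Gkn2 Mbp (r = 0.989), Nme3, Ezh1, Nfil3 and Det1 (0.972). Gkn3 was most like Fam171a2 (r = 0.996), Prrc2a, Htra2, Vil1 and Nol3 (0.992). None of the 25 is a gene of these 2 families. The libraries fall apart by replicate number, and with 6 libraries many genes reach such values.

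Genes that act with trefoil peptides or that mark the cells that make them were counted in lists. Over all tested genes 2.37% rose and 0.723% fell with the block. The lists are short and were chosen with earlier results of these data known, so the counts are descriptions. Of 12 tested partners, folding factors and receptors, 2 rose and 1 fell with the block, with a median log2 fold change of -0.06. Agr2, a disulfide isomerase needed for mucin folding, rose 1.51-fold (adjusted p = 0.0181 in edgeR), from 171, 169 and 232 CPM in controls to 263, 201 and 431 CPM. F2r, the thrombin receptor, rose 1.47-fold (adjusted p = 0.0131). Cxcr4, a chemokine receptor through which Tff2 has been reported to signal, fell 1.83-fold (adjusted p = 0.0146 in edgeR). It was at 27.3, 47.2 and 16.9 CPM in controls and at 21.1, 21.3 and 7.41 CPM with Erbb2, lower in each number, with overlapping groups. These calls were lost with 1 replicate number left out: Agr2 had an adjusted p of 0.182 without replicate 1, and F2r and Cxcr4 of 0.147 and 0.13 without replicate 2 (edgeR with the block). Lingo2, a reported receptor of Tff3, had 0 counts in all 6 libraries. Muc5ac, the mucin that Tff1 accompanies in pit cells, had too few counts to be tested, 1, 0 and 2 in controls and 2, 56 and 8 in overexpressing libraries. Without the block edgeR called 0 genes of any list.

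Other genes share a protein domain with the trefoil factors or the gastrokines. Of the 4 other trefoil domain genes, Sis and Zp1 had 0 counts, and the glucosidases Gaa and Mgam had log2 fold changes of 0.22 and 0.23 in the blocked edgeR fit (adjusted p = 0.228 and 0.652). Of 7 other BRICHOS genes 2 were tested and 0 changed. These were Itm2b at -0.11 and Itm2c at 0.07 (adjusted p = 0.562 and 0.802), and Sftpc and Tnmd had 0 counts.

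Of 20 tested transcription factors of gastric surface and mucous cells, 1 rose and 2 fell with the block, with a median of -0.06. The shares over all tested genes were 2.37% and 0.723%. Cdx2, an intestinal factor, rose 3.66-fold (adjusted p = 0.0274), from 0.278, 0.282 and 2.37 CPM to 3.18, 2.43 and 5.16 CPM. It was counted 6, 5 and 55 times in controls and 73, 43 and 124 times with Erbb2. Its place among the tested genes thus leaned on the group in which it was higher. Without replicate 3 its log2 fold change was 3.32 in place of 1.87, and without replicate 1 or 2 it missed the threshold (adjusted p = 0.111 and 0.0927 in edgeR). Creb3l4 fell 1.49-fold (adjusted p = 0.0217) and the foregut factor Sox2 1.39-fold (adjusted p = 0.0144 in edgeR), and without replicate 2 both missed the threshold (0.25 and 0.163).

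**Figure D4:**
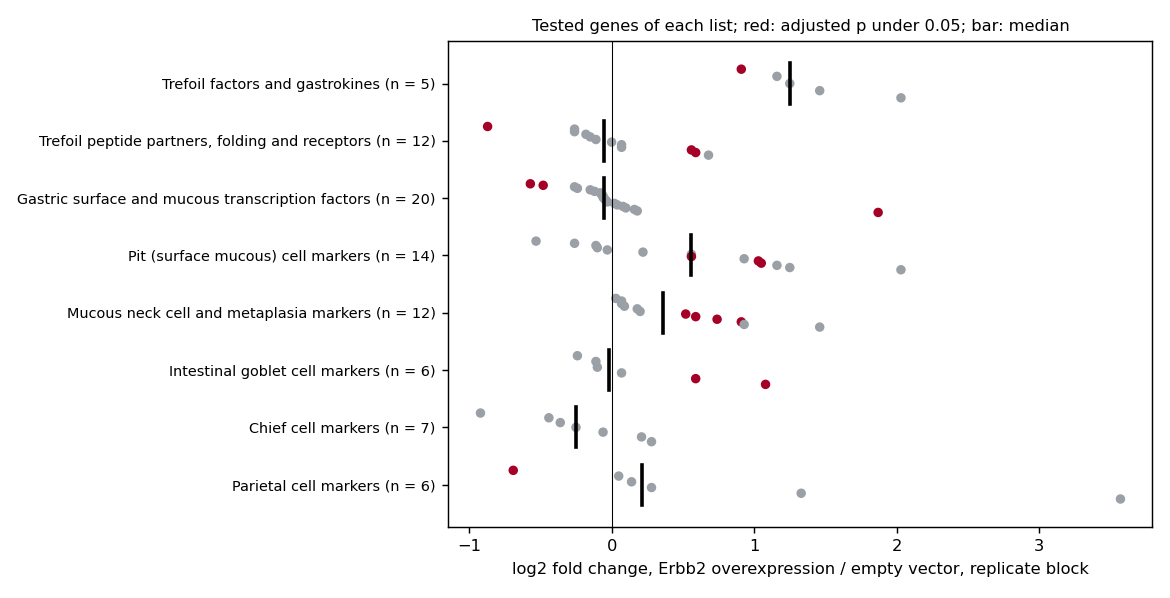
Log2 fold change with the replicate block of each tested gene, by list; red points passed an adjusted p of 0.05, and black bars are medians. Among the 5 tested trefoil and gastrokine genes 1 is red, Tff2, and all 5 lie above 0, where the median of all tested genes is -0.01. Of these, Gkn1 and Gkn2 reached the count minimum in 2 overexpressing libraries and 1 control library, so their place here leaned on the group in which they were higher. The pit list also holds Tff1, Gkn1 and Gkn2, and the mucous neck list Tff2 and Gkn3, so that Tff2 is red there as well. Agr2 is the same red gene in the partner, mucous neck and goblet lists.

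Cell type markers were read with the trefoil factors and gastrokines left out of their own lists. Beside each count of a list stand the 2.37% of all tested genes that rose and the 0.723% that fell. Of 11 other tested pit cell markers 3 rose and 0 fell with the block, with a median log2 fold change of 0.22. The surface antigen gene Psca rose 2.05-fold, from 79.9, 63.4 and 74.5 CPM to 121, 158 and 171 CPM without overlap (adjusted p = 0.00557 in edgeR), and DESeq2 called it without the block as well. The aldehyde dehydrogenase gene Aldh3a1 rose 2.07-fold (adjusted p = 0.000115) and Mucl3, a mucin-like gene, 1.47-fold (adjusted p = 0.0154). Mucl3 was at 40.5 and 77.0 CPM in replicate 3 and at 434 CPM or more in the other libraries. Among pit markers not called, Muc1 had a log2 fold change of -0.26, Ctse of -0.10 and Cldn18 of 0.93 (adjusted p = 0.145, 0.619 and 0.12 in edgeR). These were named after their values were seen. The summed pit list, with Tff1, Gkn1 and Gkn2, was at 16200, 20100 and 12800 CPM in control replicates 1, 2 and 3. With Erbb2 it was at 16200, 17000 and 10000 CPM. Of 10 other tested mucous neck and metaplasia markers 3 rose and 0 fell, with a median of 0.19: Agr2, Nupr1 (1.43-fold, adjusted p = 0.0266) and the chloride channel gene Cftr (1.67-fold, adjusted p = 0.0330). Cftr was named after its value was seen. It missed the threshold without replicate 2 (adjusted p = 0.108), Nupr1 without replicate 1 or 2 (adjusted p = 0.112 and 0.208), and the goblet cell gene Clca1, given next, without replicate 1 (0.0504 in edgeR with the block). Of 6 tested goblet cell markers 2 rose, Agr2 and Clca1, a secreted goblet cell protein (2.11-fold, adjusted p = 0.00503); Spdef, a goblet cell factor, was at -0.24 on the log2 scale (adjusted p = 0.445). Zg16, Retnlb, Ang4 and Atoh1, defining genes of goblet cells, had 0 counts.

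Among the remaining cell types 0 of 7 chief cell, 0 of 3 enteroendocrine and 0 of 10 epithelial markers changed with the block. Of all tested genes 2.37% rose and 0.723% fell. Pgc, pepsinogen C, was at 79.4 ± 23.2 CPM in controls and 60.3 ± 8.96 CPM with Erbb2 (SD, n = 3), Clps had a log2 fold change of -0.92 and Ctsl one of 0.28 (adjusted p = 0.453, 0.0967 and 0.0694 in edgeR). Of 6 parietal cell markers 1 fell: Kcnj15, which codes for a potassium channel, by 1.62-fold (edgeR adjusted p = 0.00378). Aqp4, a water channel gene, was at 4.36, 1.3 and 16.6 CPM in control replicates 1, 2 and 3 and at 79.2, 51.5 and 103 CPM with Erbb2, so its groups did not overlap. Its log2 fold change with the block was 3.57 (adjusted p = 0.174 in edgeR), and it passed without replicate 3 (4.54, adjusted p = 2.3e-41 in edgeR) and in DESeq2 with the block (4.04). The p-value without replicate 3 comes from few libraries and leans on the spread shared across genes. For Car2 the blocked log2 fold change was 0.28 (edgeR adjusted p = 0.218), and Atp4b and Cckbr had 0 counts. The epithelial keratin genes Krt7, Krt18 and Krt19 were high in all libraries, with group means of 1560 to 1930, 841 to 938 and 2060 to 2340 CPM, and had log2 fold changes of 0.34, 0.17 and 0.18 with the block (adjusted p = 0.0526, 0.310 and 0.247). Chga, Chgb and Ghrl, the tested enteroendocrine genes, reached at most 2.89 CPM, and Gast and Tac1 had 0 counts.

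Markers of other tissues were near 0, with exceptions. Of 8 fibroblast markers only Col1a1 was tested, at 0.855 ± 0.504 CPM in controls and 1.24 ± 0.145 CPM with Erbb2 (SD, n = 3), and Col1a2, Dcn, Lum and Thy1 had 0 counts. The endothelial genes Tek and Esam were at 0.501 ± 0.314 and 3.04 ± 1.83 CPM in controls and 3.09 ± 5.08 and 3.52 ± 1.40 CPM with Erbb2 (SD, n = 3), with Tek at 8.95 CPM in overexpressing replicate 3 and Emcn at 0 counts. Fibroblast, immune and endothelial lists had 0 genes called with the block.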

How the data were processed

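The deposited tables, 1 per library, hold unnormalized whole-number counts for each Ensembl ID, per the file headers. The submitters' processing notes name STAR, featureCounts and GRCm39. Their versions, the annotation and whether counting used strand: not given in the sources used here. Genes were filtered with filterByExpr (minimum count 10), scaled by TMM and tested with edgeR 4.0.16 (R 4.3.3; current quasi-likelihood F test, robust, two-sided), group as the single term, Benjamini-Hochberg threshold 0.05. Standard errors are the log2 fold change divided by the root of F. limma 3.58.1, DESeq2 1.42.0, other scalings and filters, left-out libraries and the replicate number as a block were alternatives. Libraries of the same number deviated together from their group means (r = 0.333, 0.660 and 0.707), so blocked values are printed. That choice used these same data. Between numbers 1 and 2 r was 0.128 and 0.096, and between these and number 3 it ran from -0.657 to -0.28. The fit was also run on simulated data drawn with an effect shared within each replicate number. Data made in that way cannot show whether the block suits these libraries. Lengths, gene order and coding sequences are from GENCODE M21 (GRCm38). Besides the 6 genes and Erbb2, the rule named up to 3 genes per list with the smallest blocked p, defining markers at 0 counts, and the 5 genes most like each tested member. Members and lists were chosen with earlier results of these data known. Some genes are not reported here.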

Additional observations from a re-analysis of the deposited data

How the results depend on the processing

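Tff1 and Tff2 kept a positive log2 fold change under every alternative run, and Gkn2 under those in which it was tested, which leaves out the filter of at least 1 CPM in 3 libraries. With the replicate block 298 genes were higher and 91 lower, 1 of the 6 genes was called, and Tff2 stood at 0.91 and Erbb2 at 1.23. With the block and no filter these were 272, 73, 1, 0.91 and 1.24; with DESeq2 370, 96, 1, 0.92 and 1.24; with limma voom 311, 106, 1, 0.91 and 1.23; with RLE size factors 312, 83, 1, 0.92 and 1.24. An earlier form of the quasi-likelihood fit, chosen after seeing the data, gave 312, 93, 1, 0.91 and 1.23 with the block. DESeq2 without the block called 28 higher and 6 lower genes and Erbb2 (1.23), and 0 of the 6, with no p-value for Gkn3. The causes of these differences between tools were not tested.

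Leaving out libraries with the block gave 122 to 769 higher and 24 to 320 lower genes (173 and 40 without replicate 1), 1 to 2 of the 6 called, and log2 fold changes of 0.76 to 1.07 for Tff2, 0.90 to 1.67 for Tff1 and 1.12 to 1.32 for Erbb2 (1.28 without replicate 3). Without the block, leaving out 1 library gave 0 to 1 higher genes, the 1 without control replicate 3. The values then ran from -0.46 to 3.39 for Gkn1, -0.11 to 2.78 for Gkn3 and 0.33 to 1.51 for Tff2, with -0.04 for Gkn3 without control replicate 2. Gkn1 and Gkn2 were not tested with the block without replicate 3, where they fell below the filter. limma voom turned Chgb to -0.13 and Ghrl to 0.02. Leaving out 1 library without the block also turned signs, over ranges of -0.04 to 0.52 for Mgam, -0.30 to 0.09 for Itm2b, -0.12 to 0.17 for Itm2c, -0.40 to 1.24 for Mucl3, -0.18 to 1.52 for Cftr, -0.47 to 0.02 for Spdef, -0.88 to 0.42 for Chga, -0.16 to 2.29 for Chgb, -0.26 to 1.03 for Cd68, -1.50 to 3.21 for Tek and -0.15 to 0.83 for Esam. With the block they turned for Chgb without replicate 2 (-0.46), and for Itm2c (-0.09) and Spdef (0.01) without replicate 3. Depth limits Tff3, Gkn1 and Gkn2, with 20, 209 and 105 counts over all libraries.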
